A study of Homo sapiens with 8 samples.

Results

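The unfolded protein response and the integrated stress response were followed through 10 genes in hCMEC/D3. This human line of immortalised endothelial cells from brain microvessels is used in culture to model the blood-brain barrier. They are the sensors ERN1, EIF2AK3 and ATF6, the transcription factors XBP1, ATF4, DDIT3 and ATF3, and the target genes TRIB3, ASNS and HERPUD1. They were taken from the deposited table by gene symbol, and all 10 were found among the 23346 genes it lists. Polyadenylated RNA was sequenced from 8 replicates of the line, which form 1 group. The labels name no treatment, time point, genetic change or passage, and no control group, so no comparison of conditions was possible. They do not say whether the replicates were separate cultures, so each p-value below measures only the spread between these 8 libraries, which may be technical.

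Cells that accumulate unfolded proteins in the endoplasmic reticulum (ER) signal through 3 sensors in its membrane. ERN1 (IRE1 alpha) is a kinase and ribonuclease that removes a short block from the XBP1 messenger RNA, EIF2AK3 (PERK) phosphorylates the translation factor eIF2, and ATF6 is cut in the Golgi to release a transcription factor. Phosphorylated eIF2 lowers general translation while that of ATF4 rises, and since other kinases phosphorylate the same factor for other stresses, this arm is called the integrated stress response. In brain endothelium, as in other cells that secrete and display many membrane proteins, these pathways adjust the folding capacity of the ER. ERN1 and EIF2AK3 are switched by phosphorylation, ATF6 by cleavage and XBP1 by splicing, and none of these events is visible in a count of reads per gene.

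Total counts were between 69388544 and 90205244 per library. All 12 endothelial markers examined were detected, with a summed level of 3530 to 5759 CPM (counts per 1000000 counts of the library), and 0 of 5 astrocyte markers were, with a summed level of 0.820 to 1.17 CPM. Markers of other cell types reached 5 of 8 for mural cells (47.3 to 74.2 CPM summed), 2 of 6 for fibroblasts (142 to 211 CPM), 3 of 6 for epithelium (317 to 510 CPM), 2 of 5 for neurons (51.7 to 66.5 CPM) and 1 of 5 for leukocytes (47.5 to 84.8 CPM). Detected were PDGFRB, RGS5, ACTA2, ABCC9 and CSPG4 for mural cells, and COL1A1 and COL1A2 for fibroblasts. KRT8, KRT18 and KRT19 were detected for epithelium, SYT1 and TUBB3 for neurons and CD68 for leukocytes. Among the markers below detection were DES, KCNJ8 and NOTCH3 for mural cells and PDGFRA and DCN for fibroblasts. Others below detection were EPCAM and CDH1 for epithelium, RBFOX3 for neurons and PTPRC for leukocytes. Replicates 2, 7 and 8 stood apart from the other 5. Genes with long transcripts were lower in them relative to genes with short ones. The slope of a library's deviations on log2 transcript length was between -0.34 and -0.11 in these 3 and between 0.09 and 0.15 in the others. In the same libraries 87 ribosomal protein genes took 5.72% to 7.50% of their counts, against 3.88% to 4.42% in the others. Calls of variation that rest on these libraries are given with and without them.

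All 10 genes were detected, meaning at least 1 CPM in every library, as were 51.3% of all listed genes. CPM values were scaled by library size with the TMM method and are compared only within a gene. Levels of different genes were set side by side on the authors' CQN values, which are on a log2 scale and adjusted by conditional quantile normalisation for gene length and GC content. These values are not a division by length, so each order was also examined as CPM per kilobase of the canonical transcript.

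Short stretches of DNA near the start of 4 of the genes are shown first, because they hold the letters through which the pathway's factors are known to act. The ER stress response element (ERSE), bound by ATF6 and by spliced XBP1 together with a CCAAT-binding factor, and its shorter form ERSE-II were searched as CCAAT followed after any 9 bases by CCACG, and as ATTGG followed after any 1 base by CCACG. The C/EBP-ATF response element (CARE), bound by ATF4 with a C/EBP partner, was searched as TGATGNAA. Both strands were searched, in windows from 250 bases before to 50 bases after each gene start in RefSeq (GRCh38.p14 table), and each printed stretch was then placed in GRCh37 by exact match. Capitals mark the matched letters.
HERPUD1 (ERSE-II, chr16:56965928-56965956, plus strand): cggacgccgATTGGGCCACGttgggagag
XBP1 (ERSE, chr22:29196586-29196614, minus strand): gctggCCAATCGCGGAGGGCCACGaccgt
ASNS (CARE, chr7:97501770-97501799, minus strand): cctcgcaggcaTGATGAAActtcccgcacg
ATF3 (CARE, chr1:212738547-212738576, plus strand): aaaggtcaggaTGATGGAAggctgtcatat
HERPUD1 (CARE, chr16:56965867-56965896, plus strand, with the motif read on the other strand): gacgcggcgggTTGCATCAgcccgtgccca

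ERSE was present in 0.0769% of 35116 such windows, ERSE-II in 0.0541% and CARE in 3.62%. All 10 genes had a window, 17 in all. HERPUD1 and XBP1 held ERSE-II or ERSE, and ASNS, ATF3 and HERPUD1 held CARE. Gene starts in the RefSeq windows and in the deposited table differ, so the HERPUD1 and ASNS stretches lie inside the gene spans of the table and those of XBP1 and ATF3 before them. The ASNS stretch overlaps an annotated ASNS exon of GRCh37, and the other 4 overlap none. Among 16 genes for ER chaperones and folding enzymes with a window (21 windows), 9 held ERSE or ERSE-II, HSPA5, HSP90B1 and CALR among them. Of 12 amino acid and one-carbon genes with a window (18 windows), 5 held CARE, among them the transporter subunit SLC3A2 and the transporter SLC7A1. These counts are of genes, some with several windows, and the shares above are of windows. Also searched were UPRE (TGACGTGG), in 0.729% of windows, and CRE (TGACGTCA), in 1.85%, and neither was found in a window of the 10 genes. The matches in HERPUD1, at -117 to -107 for ERSE-II and -176 to -169 for CARE from the gene start, do not overlap. UPRE and CRE share their first 6 letters, and CRE reads the same on both strands. A match describes letters and not a bound site.

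The 3 sensors spanned a wide range of levels, with ERN1 the lowest of all 10 genes on both scales. ERN1 (17:62120390-62207502, minus strand, 22 exons in a transcript of 7895 nt) measured 6.72, 2.53, 7.84, 7.02, 7.10, 7.59, 4.85 and 1.82 CPM in replicates 1 to 8 (mean 5.68 ± 2.35, SD, n = 8). Replicates 2, 7 and 8 were the 3 lowest, and replicate 3 was 4.30 times replicate 8. The gene overlaps 2 short listed microRNA genes, MIR4315-1 and MIR4315-2. EIF2AK3 (2:88856259-88927094, minus strand, 17 exons, 4536 nt) had a lowest value of 22.1 CPM in replicate 8, a median of 38.8 and a highest value of 43.7 in replicate 1. ATF6 (1:161736034-161933860, plus strand, 16 exons, 7470 nt) lay between 75.6 CPM in replicate 8 and 118 in replicate 1, with a median of 106. For all 3 sensors, which have the 3 longest transcripts among the 10 genes, the CPM in replicates 2, 7 and 8 were below those in every other library. On CQN values ATF6 turned the other way, with 6.75 in replicate 8 and 6.70 in replicate 2 its highest values and 6.27 to 6.35 elsewhere.

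**Figure D1:**
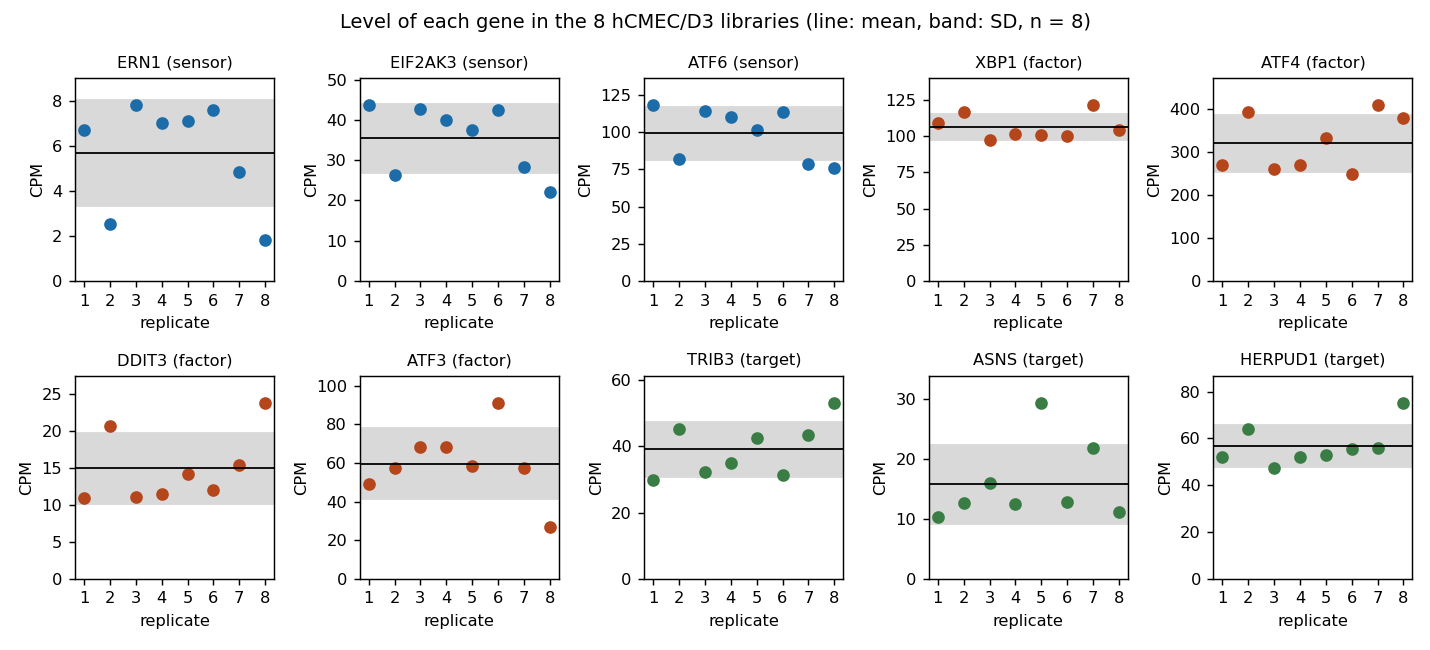
Level of each of the 10 genes in CPM (vertical axis, linear from 0) in replicates 1 to 8 (horizontal axis), with the mean as a line and 1 SD as a band. ERN1, EIF2AK3 and ATF6 are lowest in replicates 2, 7 and 8, ASNS is highest in replicates 5 and 7, and ATF3 ranges from 26.7 to 91.3 CPM.

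Each sensor was set beside its relatives in the same libraries. ATF6 had a mean CQN value of 6.41, against 7.16 for ATF6B, which is cut and released in the same way. ATF6 was lower by 0.75 ± 0.17 on this log2 scale (a difference of -0.75, SD, n = 8) and in 8 of 8 libraries, where the exact permutation test over sign flips gave p = 0.00781, two-sided and equal to the adjusted p over 4 pairs, which is also the smallest 8 libraries can give. Per kilobase the difference was -1.18, while without any adjustment for length, on log2(CPM + 1), it was 0.32 in the other direction. EIF2AK3, at a mean CQN value of 5.37, was below the other 3 kinases of eIF2 in 8 of 8 libraries each. The differences were -2.56 ± 0.29 (SD, n = 8) from EIF2AK1, the heme-regulated kinase, -2.17 ± 0.35 from EIF2AK2, the kinase of double-stranded RNA, and -1.78 ± 0.06 from EIF2AK4, which senses uncharged transfer RNA, each with the same exact permutation p of 0.00781. Per kilobase they were -2.52, -1.08 and -1.60. ERN2, the relative of ERN1 known from gut and airway epithelium, averaged 0.148 CPM, was not detected and has no CQN value, so ERN1 was not compared with it.

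Of the 4 transcription factors, ATF4 had the highest level of the 10 genes on both scales. ATF4 (22:39916569-39918691, plus strand, 3 exons, 1419 nt), the factor translated when eIF2 is phosphorylated, measured 270, 394, 260, 271, 333, 249, 410 and 380 CPM in replicates 1 to 8 (mean 321 ± 66.3, SD, n = 8). Replicates 2, 7 and 8 were the 3 highest in CPM, but on CQN values replicates 5 and 7 were highest (both 9.61) and replicate 8 was lowest (9.21). The annotation lists 4 ATF4 pseudogenes, with which reads may be shared. XBP1 (22:29190548-29196560, minus strand, 6 exons, 1791 nt), the factor made active by ERN1, was between 97.2 and 122 CPM with a median of 103, and has 1 annotated pseudogene. Its highest library was 1.25 times its lowest, the narrowest ratio of the 10 genes.

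The place where ERN1 removes a block is shown because the deposited counts cannot separate the XBP1 forms. The stretch lies at chr22:29192101-29192156 of GRCh37, minus strand. Capitals mark the 26 bases that are present in the longer annotated transcript, XBP1-201, and absent from XBP1-202. The block could start at any of 7 neighbouring positions without changing either transcript. The first of these is marked, so the capitals need not be the exact bases that ERN1 removes.
XBP1 transcript: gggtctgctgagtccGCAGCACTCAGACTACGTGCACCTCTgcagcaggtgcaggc

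DDIT3 (12:57910371-57914300, minus strand, 4 exons, 903 nt), which encodes CHOP, a factor linked to cell death in prolonged ER stress, was lower than ATF4 per kilobase (16.5 against 226 CPM). It measured 20.7, 15.3 and 23.8 CPM in replicates 2, 7 and 8, its 3 highest libraries, and 10.9 to 14.2 in the other 5 (mean 14.9 ± 4.85, SD, n = 8). Its end overlaps MARS by 68 bases, and without knowing whether counting used strand, reads there cannot be assigned. ATF3 (1:212738676-212794119, plus strand, 4 exons, 1940 nt), a factor induced both by ATF4 and as an immediate early gene, measured 49.1, 57.5, 68.0, 68.4, 58.4, 91.3, 57.2 and 26.7 CPM (mean 59.6 ± 18.4, SD, n = 8). Replicate 6 was highest and replicate 8 lowest, a ratio of 3.42.

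Among the 3 target genes, ASNS differed most between libraries. TRIB3 (20:361308-378203, plus strand, 4 exons, 2356 nt), a pseudokinase induced by ATF4 and CHOP, was between 29.8 and 53.2 CPM with a median of 38.8. HERPUD1 (16:56965748-56977793, plus strand, 8 exons, 2853 nt), an ER membrane protein of ER-associated degradation, was between 47.3 and 75.3 CPM with a median of 54.1. ASNS (7:97481429-97501854, minus strand, 13 exons, 2385 nt), the asparagine synthetase induced by ATF4 when amino acids are short, measured 10.2, 12.6, 16.0, 12.5, 29.3, 12.7, 21.7 and 11.1 CPM (mean 15.8 ± 6.57, SD, n = 8). Replicates 5 and 7 were highest, and the annotation lists 5 ASNS pseudogenes.

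On CQN values the mean levels ran in the order ATF4 (9.40), XBP1 (7.84), HERPUD1 (6.86), ATF3 (6.76), ATF6 (6.41), TRIB3 (6.26), EIF2AK3 (5.37), DDIT3 (4.89), ASNS (4.82) and ERN1 (2.84). The median of the 10 genes was 6.34, against 5.41 over all genes with a CQN value. Of the 45 pairs of genes, 40 differed in CQN value at an adjusted p under 0.05 by the exact sign-flip permutation test, and 38 kept 1 order in 8 of 8 libraries. Neighbours in the order that did not differ beyond their spread were HERPUD1 and ATF3 (difference 0.10 ± 0.63, SD, n = 8; adjusted exact permutation p = 0.797), ATF3 and ATF6 (0.35 ± 0.75; 0.245), ATF6 and TRIB3 (0.15 ± 0.31; 0.245), and DDIT3 and ASNS (0.07 ± 0.58; 0.759). Per kilobase 40 of the 45 pairs also differed, and 36 pairs differed in the same direction on both scales. ATF3 and ATF6, ATF3 and TRIB3, and DDIT3 and ASNS differed per kilobase but not on CQN values. ATF6 and DDIT3, DDIT3 and TRIB3, and EIF2AK3 and ASNS differed on CQN values but not per kilobase.

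ATF4, XBP1 and ERN1 held the first, second and last place on both scales. Mean levels per kilobase were 226 CPM for ATF4, 59.3 for XBP1, 30.7 for ATF3, 19.9 for HERPUD1, 16.6 for TRIB3, 16.5 for DDIT3, 13.3 for ATF6, 7.81 for EIF2AK3, 6.61 for ASNS and 0.720 for ERN1. DDIT3 and EIF2AK3 were the 1 pair resolved in opposite directions. DDIT3 was below EIF2AK3 by 0.48 in CQN value (a difference of -0.48) and above it by 1.06 on log2(CPM per kilobase), so the order of these genes was left undecided.

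**Figure D2:**
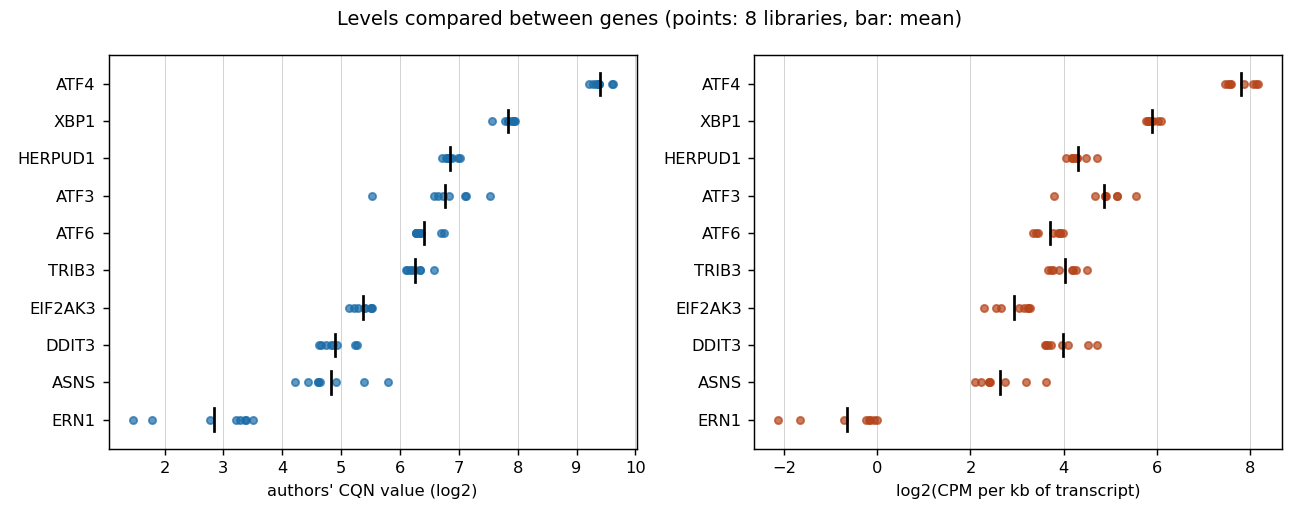
Levels of the 10 genes on the authors' CQN scale (left, log2) and as log2(CPM per kilobase of transcript) (right), with 8 points per gene, 1 for each library, and a bar at the mean. ATF4 and XBP1 are highest and ERN1 is lowest on both, while DDIT3 and EIF2AK3 change places.

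The genes differed in how far they varied between libraries. The SD of the CQN value was 0.79 for ERN1, 0.59 for ATF3 and 0.52 for ASNS, at the 99.2, 97.8 and 96.5 percentiles of the detected genes. It was 0.24 for DDIT3, 0.20 for ATF6 and between 0.10 and 0.16 for the other 5, against a median of 0.16 over all detected genes. HERPUD1, with an SD of 0.10, was at the 22.0 percentile.

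ERN1 was the 1 of the 10 genes called more variable than genes of like abundance by edgeR's goodness-of-fit test on CPM-scaled counts (adjusted p = 0.0132), where 558 of 11980 detected genes, or 4.66%, were called. Its coefficient of variation beyond counting error, which edgeR draws toward the trend, was 43.8%, against 25.3% for the trend at its level. That call was lost without replicate 2 (adjusted p = 0.0741 in edgeR), without replicate 8 (0.155) and without both (1.00). The value common to all genes was 24.05% with 8 libraries, 14.07% without replicates 2 and 8, and 8.765% without replicates 2, 7 and 8. The trend thus includes the spread of these libraries, and a gene that was not called need not be stable. On CQN values ERN1 was 1.79 in replicate 2 and 1.45 in replicate 8, below 2.78 in replicate 7 and 3.21 to 3.50 in the other 5.

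With the authors' CQN adjustment as an offset in the edgeR test, which carries the authors' correction of each library for length and GC content, 744 genes or 6.21% were called. They included ATF3 (adjusted p = 6.10e-07), ERN1 (5.64e-05) and ASNS (0.00229), 3 of the 10. ATF3 was called in each fit of this kind that left out 1 library. ASNS was lost without replicate 5, its highest library (adjusted p = 0.547 in edgeR), and ERN1 was lost without replicates 2 and 8 together (1.00), when ATF3 (1.57e-04) and ASNS (2.58e-09) were still called. Without the offset, ASNS was also called when replicates 2 and 8 were left out (adjusted p = 1.32e-04 in edgeR), and ASNS (6.83e-13) and ATF3 (5.92e-06) when replicate 7 was left out as well. Of all genes tested, these 2 fits called 2.75% and 2.42%. The fit with the offset and without replicates 2 and 8 called 4%. DDIT3 was past the threshold only with the fitted trend of DESeq2 (adjusted p = 0.0359), with which 23.5% of all genes and 4 of the 10 were called.

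**Figure D3:**
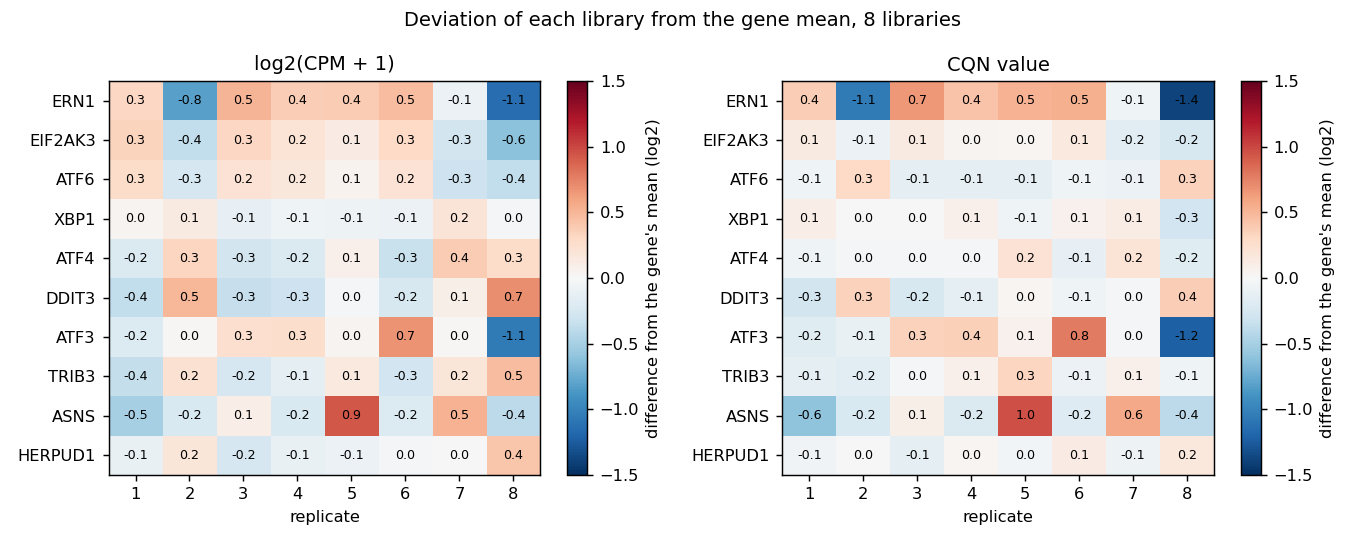
Difference of each library from the gene's mean on log2(CPM + 1) (left) and on CQN values (right), for the 10 genes (vertical) in replicates 1 to 8 (horizontal), with red above and blue below the mean. The block of low EIF2AK3 and ATF6 and high ATF4 and TRIB3 in replicates 2, 7 and 8 is seen on the left. Also on the left, ERN1 is low and DDIT3 and HERPUD1 are high in replicates 2 and 8, and each is near its mean in replicate 7. On the right ERN1 is low and ATF6 high in replicates 2 and 8, and ASNS is high in replicates 5 and 7 on both.

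In CPM, replicates 2, 7 and 8 did not overlap the other 5 libraries for 7 of the 10 genes, where 58.2% of all detected genes did the same. ATF4, DDIT3, TRIB3 and HERPUD1 were above the others (30.9% of detected genes were) and ATF6, ERN1 and EIF2AK3 below (27.3% were). HERPUD1 was 55.9 CPM in replicate 7 and 55.4 in replicate 6, so its separation rests on a narrow gap. On CQN values the count was 2 of 10, ERN1 and EIF2AK3, both below, where 31.8% of detected genes did not overlap and 14.5% were below. EIF2AK3 had CQN values of 5.28, 5.22 and 5.13 in replicates 2, 7 and 8 and 5.40 to 5.52 in the other 5. Shares of the 10 genes were thus near those of all genes in CPM, and the part of ribosomal share or transcript length in these differences was not tested. The separation leaves 5 and 3 libraries, and no correlation was computed within either, since 6 was set as the minimum.

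Of 20 relations computed between the 10 genes on log2(CPM + 1) and 2 measures of each library, 16 had an adjusted exact permutation p under 0.05 for Pearson's r, 8 with ribosomal protein share and 8 with the mean of 8 immediate early genes. The same 8 genes passed with both measures, with opposite signs for each gene. For Spearman's rho the numbers were 4 and 1. Such relations were not counted over all detected genes, so no share stands beside these numbers. Replicates 2, 7 and 8, which had the highest ribosomal shares, did not overlap the other 5 in CPM for 58.2% of detected genes. With CQN values 8 of the 20 were past the threshold for Pearson's r, and 1 of these, ATF6 with ribosomal share, had the opposite sign to that on log2(CPM + 1). Without replicates 2 and 8 the count on log2(CPM + 1) was 0 (7 at an unadjusted exact permutation p under 0.05). With ribosomal share r was then -0.990 for ATF6, -0.985 for EIF2AK3, 0.957 for ATF4, -0.918 for ERN1 and 0.893 for DDIT3. It was 0.809 for TRIB3, 0.527 for HERPUD1 and -0.324 for ATF3.

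The relation of ATF3 with the immediate early genes was the 1 of that kind past the threshold by rank. Over 8 libraries Pearson's r was 0.890 (exact permutation p = 0.00218, adjusted 0.00624) and Spearman's rho 0.857 (exact permutation p = 0.0107, adjusted 0.0429). Leaving out replicates 4 and 8, the farthest from the median of the immediate early mean, r was 0.809. On CQN values of ATF3 r was 0.930 (adjusted exact permutation p = 0.0124), but rho was 0.810 and not past the threshold (adjusted exact permutation p = 0.109). Without replicate 8 alone r was 0.763 and the call was lost (adjusted exact permutation p = 0.0895), and without replicates 2 and 8 r was 0.753 (0.133). ATF3 was also related to ribosomal share by Pearson's r (-0.771, adjusted exact permutation p = 0.0400). By rank it was not (rho -0.476, adjusted exact permutation p = 0.286). Replicate 8 had the highest ribosomal share (7.50%) and the lowest immediate early mean (4.68), and the 2 relations were not separated.

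The immediate early genes respond within minutes to growth factors, and 3 of them were themselves above the variation trend. FOS was between 2.77 and 80.8 CPM (edgeR adjusted p = 9.86e-21), FOSB between 3.41 and 82.3 (3.49e-16) and EGR1 between 20.1 and 222 (3.92e-10). DUSP1, JUN and IER2, with the highest CQN values of the list, were not called in this fit, and all 7 detected members were called with the CQN offset. The DESeq2 trend called 4, FOS, FOSB, EGR1 and DUSP1. Of all detected genes, 4.66% were called in the first fit, 6.21% with the offset and 23.5% with this trend. EGR2, at 0.539 CPM on average, was not detected.

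**Figure D4:**
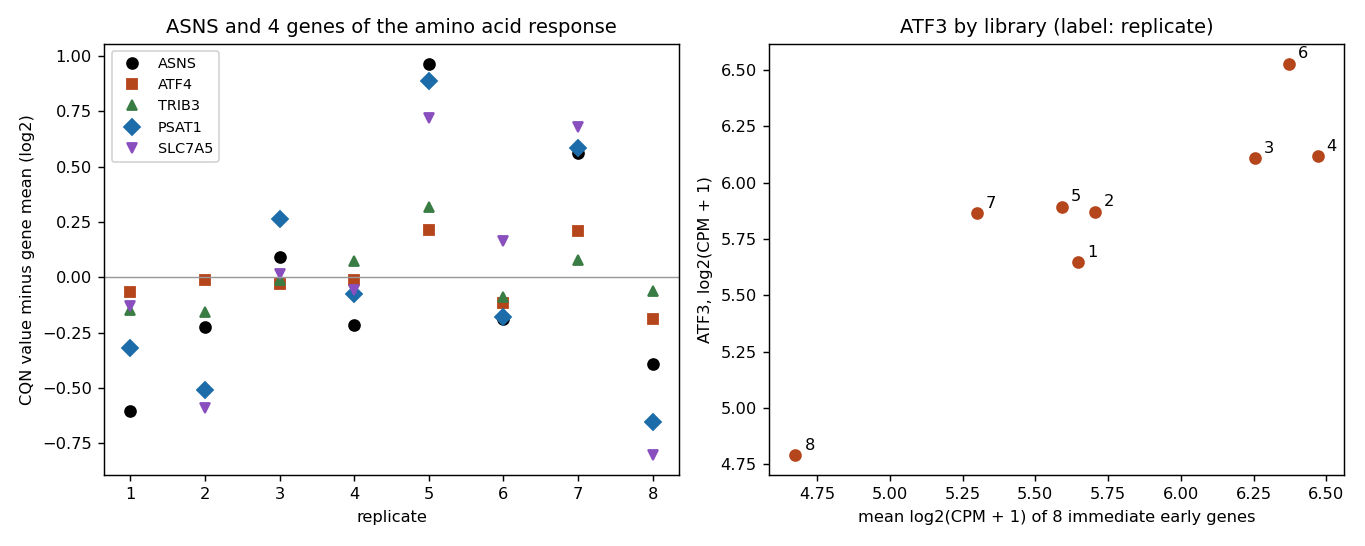
Left, CQN value minus the gene's mean for ASNS, ATF4, TRIB3, PSAT1 and SLC7A5 in replicates 1 to 8. Right, log2(CPM + 1) of ATF3 against the mean log2(CPM + 1) of 8 immediate early genes, 1 point per library labelled by replicate, with replicate 8 lowest on both axes (r = 0.890).

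ASNS, ATF4 and TRIB3 had their 2 highest CQN values in replicates 5 and 7, a pattern chosen after the values were seen and given as a description. In replicates 5 and 7 ASNS had CQN values of 5.79 and 5.39, against 4.22 to 4.92 elsewhere. ATF4 had 9.61 in both, against 9.21 to 9.39. TRIB3 had 6.58 and 6.34, with replicate 4 at 6.33, so its order there rests on a difference within rounding.

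Among all detected genes 9.7% had their 2 highest CQN values in these libraries, against 3 of the 10 genes. The pattern was chosen from these 3, so their number beside that share is no test. Among the detected amino acid and one-carbon genes, many of them targets of ATF4, 8 of 14 did so, or 57.1%. They were PSAT1 of serine synthesis, SHMT2 and MTHFD2 of mitochondrial folate metabolism, the transporters SLC3A2, SLC7A5 and SLC7A1, and the transfer RNA synthetases CARS and GARS. The pattern held for 3 of 14 stress and death targets, 1 of 15 ER-associated degradation genes and 1 of 10 eIF2 and feedback genes. It held for 0 of 10 relatives of the sensors and factors, 0 of 17 chaperones and 0 of 7 immediate early genes. In CPM it held for ASNS alone among the 10, for 4 of 14 amino acid and one-carbon genes and 4.72% of detected genes. Also in CPM it held for 3 of 10 eIF2 and feedback genes and 2 of 14 stress and death targets. The part of ATF4 in this pattern was not tested.

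No pair of the 10 genes was correlated across libraries after adjustment. Of the 45 pairs on CQN values, 11 had an unadjusted exact permutation p under 0.05 for Pearson's r and 6 for Spearman's rho, and the smallest adjusted exact permutation p was 0.0776. ASNS and TRIB3 had r = 0.875 and rho = 0.786 over 8 libraries (exact permutation p = 0.00561 and 0.0279, adjusted 0.0776 and 0.276), and r = 0.745 without replicates 2 and 5. ASNS and ATF4 had r = 0.881 and rho = 0.683 (exact permutation p = 0.00818 and 0.0701, adjusted 0.0776 and 0.351), but r = 0.359 without replicates 5 and 7. ATF6 and ERN1 had r = -0.965 and rho = -0.690 (exact permutation p = 0.00583 and 0.0694, adjusted 0.0776 and 0.351), and r = -0.365 without replicates 2 and 8, so this relation rests on those libraries. On log2(CPM + 1), which keeps the library trends on length, 21 pairs were past the threshold. Correlated pairs were not counted over all detected genes, so no share stands beside this number.

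Genes with CQN values most like a member's were sought among 11980 detected genes, by Pearson's r over 8 libraries and as a description. For ATF4 they were MPHOSPH10 (r = 0.972) and NUS1 (0.968), and for ASNS CDC6 (0.971) and WDR35 (0.967). For DDIT3 SLC2A4RG (0.981) was among them. For HERPUD1 they were KANSL1-AS1 (0.946) and SH3PXD2A (0.946). The highest of so many r values over 8 libraries can be high by selection alone, and none was tested.

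Other genes of the pathway were described from lists. Shares of all detected genes called were 4.66% by edgeR, 6.21% with the CQN offset and 23.5% with the DESeq2 trend. All 17 ER chaperones and folding enzymes were detected and 0 were called more variable than the trend, by edgeR with or without the CQN offset (2 and 1 at an unadjusted p under 0.05, and 3 with the DESeq2 trend). Their median CQN value was 8.58, and the highest were CALR (11.28) and HSP90B1 (11.03), which fold glycoproteins and other ER clients, and the disulfide isomerase P4HB (10.72). The oxidase ERO1L had the largest SD of the list (0.34). All 15 genes of ER-associated degradation were detected, with a median CQN value of 6.94 and with OS9 (9.09) and FAF2 (7.23) among the highest. The mannosidase-like EDEM3 was the 1 called (20.8 to 69.4 CPM, edgeR adjusted p = 0.0158). It was lowest in replicates 2, 7 and 8, and the call was lost without replicate 2 (0.0533) and without replicates 2 and 8 (0.192). With the CQN offset 0 of the list were called, also at an unadjusted p under 0.05, while the DESeq2 trend gave 5.

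Of 12 relatives of the sensors and factors 10 were detected, with CREB3L3 and ERN2 below detection. MBTPS1, the Golgi protease that cuts ATF6, was highest (CQN value 8.21), followed by EIF2AK1 (7.93) and EIF2AK2 (7.54). EIF2AK2 ranged from 69.2 to 276 CPM and was called (edgeR adjusted p = 0.00647), also with the CQN offset (2.55e-05) and without replicates 2, 7 and 8 (0.00980). CREB3L1 was called without the offset (0.0208), but not without replicate 2 (0.242), without replicate 5 (0.0605) or without replicates 2 and 8 (1.00). All 10 genes of eIF2, its exchange factor eIF2B and the feedback on it were detected, with EIF2S3 (8.84), EIF2S2 (8.80) and PPP1R15A (8.15) highest in CQN value. PPP1R15A, which recruits the eIF2 phosphatase and is itself induced by stress, was the 1 called with the CQN offset (edgeR adjusted p = 8.73e-06, and 0.528 without replicates 2 and 8) and 0 were called without it (0 at an unadjusted p under 0.05, and 0 with the DESeq2 trend).

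Genes downstream of ATF4 and of stress were described beside all detected genes. Of these, edgeR called 4.66% without the CQN offset and 6.21% with it, and the DESeq2 trend called 23.5%. Without the offset, 1 of 14 amino acid genes and 0 of 14 stress and death genes were near that share. Of 16 amino acid and one-carbon genes 14 were detected, PHGDH and ALDH1L2 not, and the highest CQN values were those of SLC38A2 (9.52), SLC3A2 (8.67) and AARS (8.44). SLC7A11, the cystine transporter, was called (51.6 to 220.0 CPM, edgeR adjusted p = 0.00556), but not without replicate 2 (0.138) or without replicates 2 and 8 (0.289). With the CQN offset the calls were PSAT1 (1.20e-05), SLC7A5 (2.71e-07), SLC7A1 (0.0119) and SARS (0.0247), and SLC7A11 was not among them (0.394). Without replicates 2 and 8 PSAT1 (4.34e-08) and SLC7A5 (1.63e-05) were called by edgeR with the offset, and SLC7A1 (1.00) and SARS (0.324) were not. SLC7A1 was lost without replicate 2 alone (0.127), and SARS without replicate 1 (0.0791), 4 (0.0698), 6 (0.0545) or 8 (0.101). All 14 stress and death targets were detected and 0 were called by edgeR without the offset (3 at an unadjusted p under 0.05, 8 with the DESeq2 trend), with TNFRSF10B (8.30), PMAIP1 (8.16) and DDIT4 (7.96) highest in CQN value. With it, edgeR called DDIT4 (adjusted p = 0.0451), STC2 (5.41e-06) and the pro-apoptotic PMAIP1 (2.12e-05). DDIT4 was lost without replicate 3 (0.113), 6 (0.0981) or 7 (1.00), and PMAIP1 without replicates 2 and 8 together (1.00), while STC2 was still called then (4.48e-05). The median SD of the CQN value was 0.22 for the amino acid list, 0.25 for the stress and death list and 0.10 for the chaperones, beside 0.16 for all detected genes and 0.18 for the 10 genes.

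**Figure D5:**
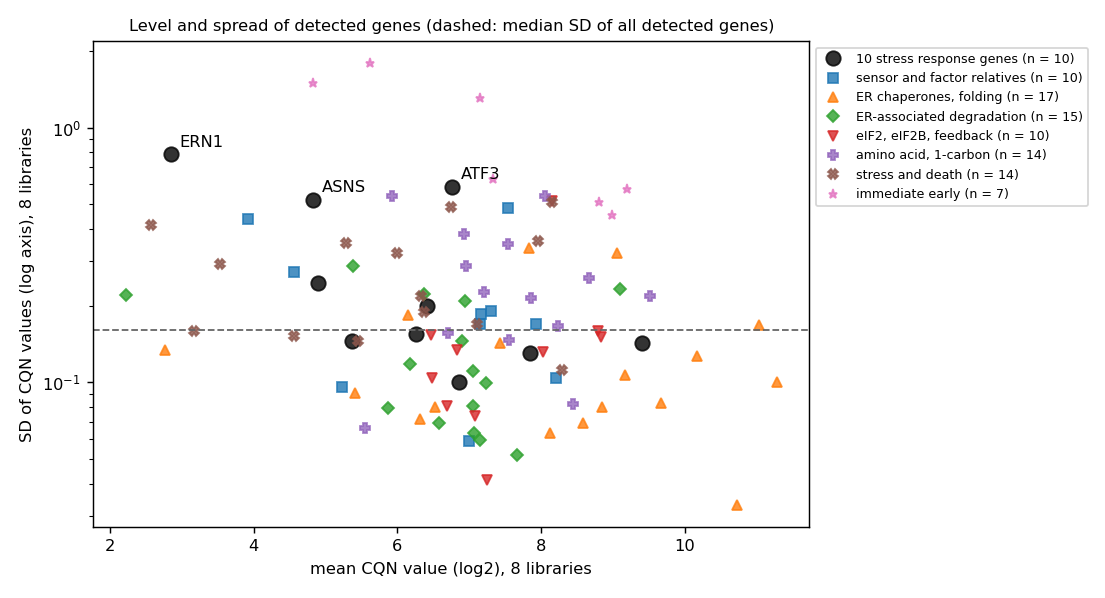
SD of the CQN value over 8 libraries (vertical, log axis) against its mean (horizontal, log2) for the detected genes of each list, with the 10 stress response genes in black and a dashed line at the median of all detected genes (0.16). ERN1, ATF3 and ASNS lie above the line and the chaperones mostly below it, at higher levels.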

How the data were processed

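The 10 genes and the lists were chosen with earlier results of these data known. The authors deposited counts per gene that were not normalised, and CQN values on a log2 scale for 13962 of 23346 genes, per the file headers. CASAVA 1.9, TopHat2 2.0.6 and HTSeq were used with genome build hg19, per the submitters' processing notes. The annotation, the strand setting and the CQN parameters were not given in the sources used here. All 186768 deposited counts were even and 0 were odd, so either each read pair counts as 2 or the values were doubled. Starts in the table count from 0 and are printed from 1. Exons and lengths came from canonical transcripts of GENCODE lifted to GRCh37.

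TMM-scaled CPM and the test of variation (goodness of fit against a trended dispersion) used edgeR 4.0.16 in R 4.3.3, with Benjamini-Hochberg adjustment over all 11980 detected genes. DESeq2 1.42.0 gave another trend. Sign-flip tests used all 256 patterns of 8 libraries, and correlations all 40320 pairings, both two-sided and exact, with adjustment over 45 pairs, 20 relations or 4 relative pairs. The variation test was tested on simulated data. Named genes were all 10 members, and of each list the 3 highest mean CQN values, the largest SD, those past the variation test and the undetected. Some genes that this rule names are not reported here. Alternatives were other scalings, filters, trends, value scales and libraries left out. A fit of the CQN offset with libraries left out and the relatives per kilobase were added after seeing the data.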

Additional observations from a re-analysis of the deposited data

Results flagged for a closer look

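The XBP1 CQN value in replicate 8, 7.56, was the lowest of the 8 and lay far from the others, which were between 7.78 and 7.95. Its gap to the nearest library, divided by the range, passed Dixon's 95% critical value for 8 samples (0.526). Of 20 sets of 8 values examined (10 genes on 2 scales) this was the 1 to pass, and chance gives about 1 in 20. Replicate 8 is 1 of the 3 libraries that stand apart. In CPM it was not extreme for XBP1 (104 CPM, with the others between 97.2 and 122).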

How the results depend on the processing

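Detection of all 10 genes and the 4 differences between sensors and relatives kept their counts with each library left out. The count of the 10 genes above the variation trend was 1, and it was 4 with the DESeq2 trend, 3 with the CQN offset, 2 without replicates 2, 7 and 8, and 0 to 1 with each library left out. With the CQN offset it was 2 to 3 when libraries were left out. Over all genes tested the shares were 4.66%, 23.5% with the DESeq2 trend, 6.21% with the CQN offset and 2.42% without replicates 2, 7 and 8. They were 3.15% to 4.09% with each library left out, and 2.74% to 5.95% with the offset and libraries left out. The number of correlated pairs was 0 on CQN values and 21 on log2(CPM + 1). Relations with library measures numbered 16, and 8 on CQN values, 0 without replicates 2 and 8, and 7 to 16 with each library left out. Neither correlated pairs nor relations were counted over all detected genes. Pairs that differed in level numbered 38 to 41 with each library left out. ATF6 minus ATF6B was 0.32 on log2(CPM + 1). The causes of these changes were not tested. Of 227 single values under alternatives, 212 kept their call, 8 passed the threshold, 6 missed it and 1 reversed. Exact tests without replicates 2, 7 and 8 were not run: 5 libraries allow no sign-flip p below 0.0625, and correlations were computed only over at least 6. No paired analysis was possible because the replicates form 1 group. Counting error is small at this depth: ERN1, the lowest of the 10, had at least 154 counts in every library, or 77 if each fragment counts as 2.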
